A study of Mus musculus with 4 samples.

Results

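Of 28429 cells that passed the filters in single-cell RNA sequencing of CD45+ cells from EO771 mammary tumors, 189 carried transcripts of keratin or matrix genes and almost no *Ptprc*, the gene that encodes CD45. These cells were picked by measured values. A cell was taken if it was named in the deposited normalized table, which defines the kept cells, and met 3 conditions in the raw table. It had at least 20000 UMIs (unique molecular identifiers, each the count of 1 captured transcript), at least 20 UMIs summed over *Sparc*, *Krt8*, *Krt18*, *Col1a1* and *Col3a1*, and under 1 *Ptprc* UMI per 10000 of its total. The levels of those 6 genes and the depth of the cells therefore describe the choice and carry no test. The cell with the fewest UMIs inside the limit had 21030 and the nearest outside had 19828, with 9 cells failing on that condition alone. The lowest marker sum inside was 20 UMIs and the highest outside was 19, with 24 cells failing on it alone. *Ptprc* reached 0.92 per 10000 inside and began at 1.08 per 10000 outside, where 10 cells failed on it alone.

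EO771 is a mouse mammary tumor line that was injected into the mammary fat pad of female mice, and tumors were taken at 1.5 cm3. Hosts were Csf1rfl/fl, which carry floxed alleles of the macrophage growth factor receptor gene *Csf1r* and no Cre, or Lyve1CreCsf1rfl/fl, in which Cre is made by host cells that use the *Lyve1* gene. Both groups share the floxed alleles, and the same line was injected in both. Viable CD45+ cells of 1 tumor of each genotype were pooled in each of 2 Chromium runs, and hashtag antibodies marked the tumors. In run 1 hashtag A0301 marked Csf1rfl/fl and A0302 marked Lyve1CreCsf1rfl/fl, and in run 2 the hashtags were reversed. Each genotype is thus 2 tumors, a cell's tumor was the higher of its run's hashtags, and an unpaired exact permutation test of 1 value between the genotypes cannot give a two-sided p below 0.333. Values for the tumors are given below in 1 fixed order, called tumor order: Csf1rfl/fl of run 1, Csf1rfl/fl of run 2, Lyve1CreCsf1rfl/fl of run 1 and Lyve1CreCsf1rfl/fl of run 2. In the other kept cells *Csf1r* stood at 0.962, 1.01, 0.467 and 0.494 UMIs per 10000, lower in both Cre tumors. The 3′ tag counted here need not lie in the floxed part of the gene.

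Keratins 8 and 18, encoded by *Krt8* and *Krt18*, are partner proteins that assemble into the intermediate filaments of simple epithelia, including the luminal layer of the mammary gland. Carcinoma cells that have moved toward a mesenchymal state can keep keratins while making vimentin, collagens and the transcription factors Zeb1 and Twist1, and fibroblasts, pericytes and endothelial cells of a tumor each have marker genes of their own. A gate on CD45 is meant to remove all of these cells and keep leukocytes.

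Cells that met the rule came from every tumor. There were 69, 31, 48 and 41 cells in tumor order, or 0.801%, 0.398%, 0.662% and 0.859% of the kept cells (Wilson 95% intervals 0.634 to 1.01, 0.281 to 0.565, 0.50 to 0.877 and 0.634 to 1.16, which cover counting error only). The Csf1rfl/fl tumor of run 2 was the lowest, and the genotypes overlapped. On the log2 scale the share was 0.42 higher in the Lyve1CreCsf1rfl/fl tumors (exact permutation p = 0.667). Within runs the difference had opposite signs, −0.275 in run 1 and 1.11 in run 2. The kept cells lack clusters that the authors removed as specific to the Lyve1CreCsf1rfl/fl tumor of run 2. Over all barcodes the difference was −0.0737. Because of their depth, the Sparc/Krt8 cells held 6.64%, 4.25%, 7.85% and 8.44% of the kept UMIs. Their median UMI counts were 49324, 52198, 52436.5 and 57970, against 4636.5, 3946, 3695 and 4226.5 in the other kept cells. Summed UMIs ran from 1731309 to 3744320 per tumor, so a gene without a UMI in the 189 cells could still be present at up to 3 counts in their 10646252 UMIs. Among kept cells with at least 20000 UMIs they were 21.1%, 25.4%, 63.2% and 39.0%.

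Scrublet, a caller of droplets with more than 1 cell, marked 74 of the 189 cells, or 33.3%, 32.3%, 41.7% and 51.2% in tumor order. In the other kept cells of at least 20000 UMIs it marked 88.8%, 54.9%, 64.3% and 59.4%. No cell was removed on that call. The mitochondrial share had medians of 1.09%, 1.71%, 1.19% and 1.43%, and none of the 189 barcodes occurred in both runs.

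The label given to these cells names tumor and stromal cells, and the markers bear out each word only in part. *Krt8* was found in 174 of 189 cells and *Sparc*, a secreted matrix protein, in all 189. *Krt18* was found in 22 cells and *Col1a1*, a chain of type I collagen, in 14. The defining fibroblast genes *Dcn*, *Lum* and *Clec3b* and the second type I collagen chain *Col1a2* had 0 UMIs in all 189 cells. Other genes of the fibroblast list were present, among them *Pdgfra* in 161 cells and *Gsn* in 187. There were 0 UMIs too for the pericyte and smooth muscle genes *Rgs5*, *Myh11* and *Notch3*, the endothelial genes *Tek*, *Cldn5* and *Emcn*, and the lymphatic genes *Prox1*, *Ccl21a*, *Mmrn1* and *Reln*. Above the other kept cells in all 4 tumors were 4 of 10 fibroblast, 3 of 7 pericyte and smooth muscle and 4 of 10 blood endothelial genes, shares near that of all genes with a UMI (5586 of 15623). No gene measured here tells an EO771 cell from a host cell with the same transcripts, so the cells are called Sparc/Krt8 cells below, after genes that lead them.

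**Figure D1:**
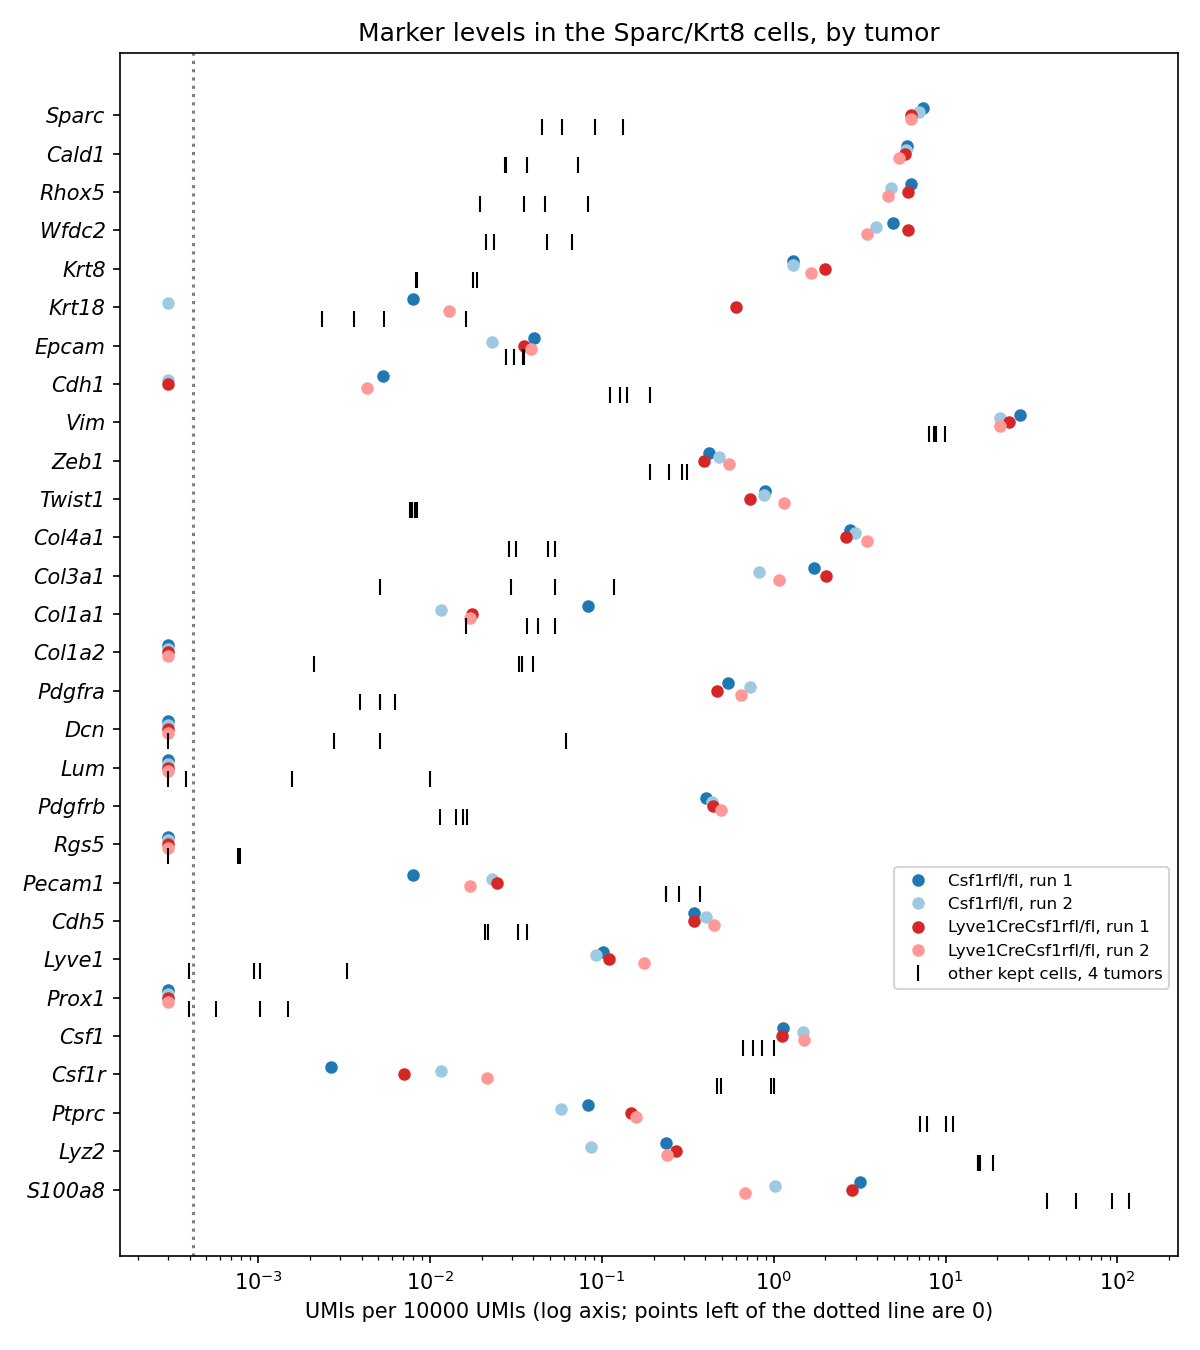
Levels of marker genes in the 189 Sparc/Krt8 cells, as UMIs per 10000 UMIs on a log axis. Each dot is the summed level in 1 tumor, each black tick is the level in the other kept cells of 1 tumor, and points left of the dotted line are 0. *Sparc*, *Cald1*, *Rhox5*, *Wfdc2* and *Krt8* lie at 1.29 to 7.41 per 10000 in every tumor, whereas *Col1a2*, *Dcn*, *Lum*, *Rgs5* and *Prox1* are at 0.

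*Krt8* and *Krt18* lie next to each other on mouse chromosome 15, with their 5′ ends facing and 23697 bases between them in GENCODE M21. Promoter letters were counted on both strands in the 250 bases before the RefSeq start (build GRCm38.p6) of 24 of the 25 genes with the highest ratio to the other kept cells. *Cdh13* was not in the table. The GC box GGGCGG was in 16 of the 24 (66.7%) against 35.4% of all genes, CCAAT was in 9 (37.5%) against 37.5%, and the E-box CACCTG, which Snail and Zeb factors bind, was in 3 (12.5%) against 19.4%. The 24 were chosen for their level and include the rule genes *Krt8*, which has a CACCTG match, and *Sparc*. All genes are the 27025 with a window, whatever their level here, so the shares are not matched for expression. A match is a description and not a bound site.

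*Krt8* was the one keratin present in most cells. It stood at 1.29, 1.29, 1.98 and 1.65 UMIs per 10000 in tumor order, against 0.00828 to 0.0188 in the other kept cells, with a mean of 1.55 ± 0.33 (SD, n = 4 tumors). Both Lyve1CreCsf1rfl/fl tumors were above both Csf1rfl/fl tumors in these sums, while the thinned medians per cell were 3, 3, 3 and 2 UMIs. As a gene of the rule it is given without a test.

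*Krt18*, whose protein partners keratin 8, had 3, 0, 172 and 3 UMIs in tumor order, in 3, 0, 16 and 3 cells. Nearly all of its UMIs lay in the Lyve1CreCsf1rfl/fl tumor of run 1, where 1 cell held 37 and another 28. All 22 cells with *Krt18* also had *Krt8*. Cells with at least 5 *Krt8* UMIs after each cell was thinned at random to 20000 UMIs numbered 14, 5, 18 and 10. In their counts before thinning, *Krt18* was seen in 1, 0, 12 and 2 of them, so this is not matched for depth. After thinning, 2, 0, 13 and 1 of all the Sparc/Krt8 cells had a *Krt18* UMI. In the other kept cells *Krt18* reached at most 0.0162 per 10000 in a tumor.

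In the Lyve1CreCsf1rfl/fl tumor of run 1 the 16 cells with *Krt18* were set against the 32 without it. The genes named were picked for being among the largest ratios between these same cells, among genes of at least 50 UMIs. *Krt8* and *Col3a1* also entered the rule. *Krt8* was 3.71 against 0.95 per 10000, *Wfdc2* (a secreted whey acidic protein family member) was 11.4 against 2.91, *Plet1*, a surface protein of epithelial progenitors, was 1.14 against 0.152 and *Phlda2* was 1.19 against 0.32. These genes were higher beside *Krt18*. In the opposite direction, *Spp1*, which encodes the secreted phosphoprotein osteopontin, was 0.579 against 10.8, *Col3a1* was 0.38 against 2.99 and *Cd74* was 0.0664 against 1.47. A few of the 32 cells carried much of this. For *Spp1* 1 cell held 452 and another 364 of the tumor's 1979 UMIs, and for *Cd74* 1 held 123 and another 59 of 269. The matrix gene *Dpt* had no UMI in the 16 cells and 58 in the 32. Median depth was 61902.5 and 48726 UMIs, the cells come from 1 tumor, and the comparison is a description without a test.

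Other epithelial genes were near the floor. Of 16 keratin and junction genes, 6 had no UMI in the 189 cells and 10, those 6 among them, had at most 3. *Epcam*, an adhesion protein of epithelia, was at 0.0401, 0.0231, 0.0353 and 0.0385 per 10000, inside or near the 0.0277 to 0.0352 of the other kept cells. *Cdh1*, which encodes E-cadherin, had 3 UMIs in all. Only *Krt8*, *Ocln* and the junction scaffold *Tjp1* were above the other kept cells in all 4 tumors, *Tjp1* with 0.446, 0.543, 0.477 and 0.577 per 10000 in 176 cells. Of 12 mammary lineage and receptor genes, *Pgr*, *Elf5*, *Trp63* and *Sox10* had no UMI, and *Esr1*, the estrogen receptor gene, had 7. *Sox9*, a transcription factor of luminal progenitors among other cells, stood at 0.847, 1.04, 0.883 and 0.997 in 168 cells against at most 0.0076 elsewhere, and *Erbb2* at 0.0828, 0.116, 0.0989 and 0.103.

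Several mesenchymal genes were found in most cells. *Vim*, which encodes vimentin, stood at 27.0, 20.6, 23.4 and 20.7 per 10000 in all 189 cells, against 8.04 to 9.90 elsewhere. The transcription factor genes *Twist1* (0.889, 0.878, 0.724 and 1.15) and *Twist2* (0.459, 0.456, 0.395 and 0.475) were found in 179 and 171 cells. *Zeb1* stood at 0.392 to 0.552 and *Snai1* at 0.208 to 0.262, both above the other kept cells in every tumor. *Snai2* and *Cdh2*, which encodes N-cadherin, had no UMI, and *Fn1*, the fibronectin gene, had 8. In total 8 of the 14 mesenchymal genes were higher in these cells in all 4 tumors and 5 were lower.

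Matrix genes found in most cells included *Sparc* and basement membrane and type VI collagen chains. The 24 listed matrix genes summed to 25.8 to 31.4 per 10000 here and to 4.09 to 6.24 in the other kept cells. Of the 24, 14 were higher in all 4 tumors and 4 lower. Over all genes 5586 were higher and 8113 lower, and 15623 had a UMI here. The list holds *Sparc*, *Col3a1* and *Col1a1*, for which the cells were picked, so part of the excess follows from the rule. *Sparc* stood at 7.41, 6.99, 6.33 and 6.31 per 10000, a mean of 6.76 ± 0.54 (SD, n = 4 tumors). *Spp1*, also listed, stood at 1.12, 1.94, 6.99 and 0.954. The type IV chains *Col4a1* (2.77, 2.97, 2.64 and 3.51) and *Col4a2* (1.72, 1.74, 1.43 and 1.77) were found in 189 and 187 cells. Their genes are read in opposite directions from a shared start on chromosome 8, where the models overlap by 22 bases. *Col6a1* was at 1.82 to 2.86 and *Nid1*, a basement membrane linker, at 1.07 to 1.25. Against these, *Col5a2* and *Col12a1* had 1 UMI each and *Postn* had none.

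The 25 genes at 1 per 10000 or more in every tumor with the highest ratio to the other kept cells ran from 71.7 to 127 times their level. They include *Fermt2* and *Cald1*, which act at adhesions and actin fibers, the peroxidase *Pxdn*, the reproductive homeobox gene *Rhox5*, the collagen chaperone *Serpinh1*, and the chromatin factor *Hmga2*. *Cald1* stood at 5.96, 5.90, 5.83 and 5.34 and *Rhox5* at 6.26, 4.83, 6.08 and 4.61, each in all 189 cells. *Lgals7*, the galectin-7 gene, was found in all 189 cells with 8988 UMIs. That every tumor held these genes follows from how they were picked, and the ratio of 1 gene varied between tumors (*Wfdc2* 73.3, 185, 256 and 72.1). Against other kept cells of at least 20000 UMIs the median ratio of the 25 was 12.8. In all, 1137 genes reached 1 per 10000 in every tumor. Of the 15623 genes with a UMI, 5586 were higher than in the other kept cells in all 4 tumors. Lower in all 4 were 8113 genes, a count not limited to genes with a UMI here.

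Vascular and mural genes gave a mixed picture. *Cdh5*, the VE-cadherin gene, stood at 0.345, 0.404, 0.346 and 0.449 in 114 cells, and *Tie1* at 0.0507, 0.0866, 0.0494 and 0.077 in 50. *Pecam1*, which endothelial cells hold in quantity, had 18 UMIs and *Kdr* had 12, both below the other kept cells. The growth factor receptor genes *Pdgfra* (0.539, 0.728, 0.466 and 0.646) and *Pdgfrb* (0.403, 0.439, 0.441 and 0.496) were found in 161 and 150 cells, against at most 0.00627 and 0.0165 elsewhere. *Acta2*, the smooth muscle actin gene, was at 0.745, 0.393, 0.445 and 0.419. Adipocyte genes were at or near 0, with 38 UMIs in all over 6 genes, 35 of them of *Fabp4*.

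*Lyve1*, the gene of a hyaluronan receptor whose control elements drive the Cre in the hosts, was found in the Sparc/Krt8 cells. It had 38, 16, 31 and 41 UMIs in tumor order, or 0.101, 0.0924, 0.109 and 0.175 per 10000, in 48 cells. The Lyve1CreCsf1rfl/fl tumor of run 2 was the highest and both Cre tumors were above both controls. The difference of 0.50 ± 0.34 on the log2 scale was not called (SE, edgeR quasi-likelihood test, unadjusted p = 0.162) and was 0.25 without the Lyve1CreCsf1rfl/fl tumor of run 2 and −0.19 with a marker minimum of 50 UMIs. In the 28229 other kept cells *Lyve1* had 21 UMIs in 14 cells, so 85.7% of the UMIs counted lay in the 189 cells. After thinning to 20000 UMIs, 27 of 189 cells (14.3%) still had a *Lyve1* UMI, and the median depths are 52769 UMIs here and 4122 in the other kept cells.

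Of the 48 cells with *Lyve1*, 48 had *Sparc*, 46 had *Krt8* and 34 had *Cdh5*. *Prox1*, the lymphatic master regulator, and the macrophage gene *Adgre1* were in none of them, *Pecam1* was in 6 and *Csf1r* in 1. Among the 141 cells without *Lyve1*, *Krt8* was in 128 and *Cdh5* in 80. The cells with *Lyve1* were deeper, at a median of 62866.5 against 48870 UMIs, and the part of depth in these counts was not tested. *Csf1r* itself had 1, 2, 2 and 5 UMIs in the 189 cells, at most 0.0214 per 10000 in a tumor.

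Of the other hyaluronan genes, *Cd44*, a surface receptor, stood at 1.70, 2.0, 1.81 and 1.90 in all 189 cells, below the 2.21 to 3.67 elsewhere. *Hmmr*, a receptor that also rises with mitosis, was at 0.668 to 0.868 and above the other kept cells in every tumor. The synthase genes *Has1* and *Has3* had 1 UMI each and *Has2* had none. The hyaluronidase gene *Hyal2* was at 0.203, 0.358, 0.177 and 0.252, with a genotype difference of −0.36 ± 0.31 that was not called (SE, edgeR, unadjusted p = 0.266).

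Ligands of the macrophage growth factor receptor were measured in the same cells. *Csf1*, the main ligand of Csf1r, stood at 1.13, 1.48, 1.11 and 1.51 per 10000 in 184 cells, against 0.663 to 1.0 elsewhere. *Il34*, the second ligand, was at 0.0988, 0.11, 0.124 and 0.0984 in 74 cells. The genotypes overlapped for both, with differences of −0.00 ± 0.23 and 0.11 ± 0.35 on the log2 scale (SE, edgeR, unadjusted p = 0.999 and 0.76). The cytokine *Mif* was the highest of 25 listed ligands at 14.9, 15.8, 17.6 and 15.1, in all 189 cells. *Cxcl12* and *Cxcl5* had no UMI, and *Csf3* had 65 UMIs in 9 cells, 56 of them in the Lyve1CreCsf1rfl/fl tumor of run 1.

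Matrix proteases and inhibitors were found side by side. *Mmp14*, a membrane-bound collagenase, was at 1.04, 1.59, 1.16 and 1.42 in 185 cells, and the inhibitor *Timp2* at 3.08, 2.37, 2.62 and 2.54 in all 189. *Timp3* had no UMI. *Ctsl*, which encodes cathepsin L, was at 5.80, 5.57, 10.5 and 5.61, with 1 cell of the third tumor holding 516 UMIs. That tumor was the highest for *Ctsl*, and the other Cre tumor lay among the controls.

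High keratin and high collagen counts seldom met in 1 cell, although *Krt8* was found in 174 and *Col3a1* in 146 of the 189 cells. After thinning, 46 cells had at least 5 keratin and fewer than 5 collagen UMIs, 37 cells the reverse, 3 cells both, and 103 neither. Each class is small at this minimum, with 49 keratin-positive and 40 collagen-positive cells. Were the classes independent, only 10.4 cells with both would be expected. At a minimum of 2 UMIs, 47 cells had both, 78 keratin alone and 37 collagen alone, so the split depends on the threshold. In tumor order the keratin cells were 12, 5, 19 and 10 and the collagen cells 17, 3, 11 and 6. *Col3a1*, a type III collagen chain, was found in 146 cells and unevenly, with 1 cell of the first tumor holding 131 of its 639 UMIs. Since these genes entered the rule, the split is a description.

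**Figure D2:**
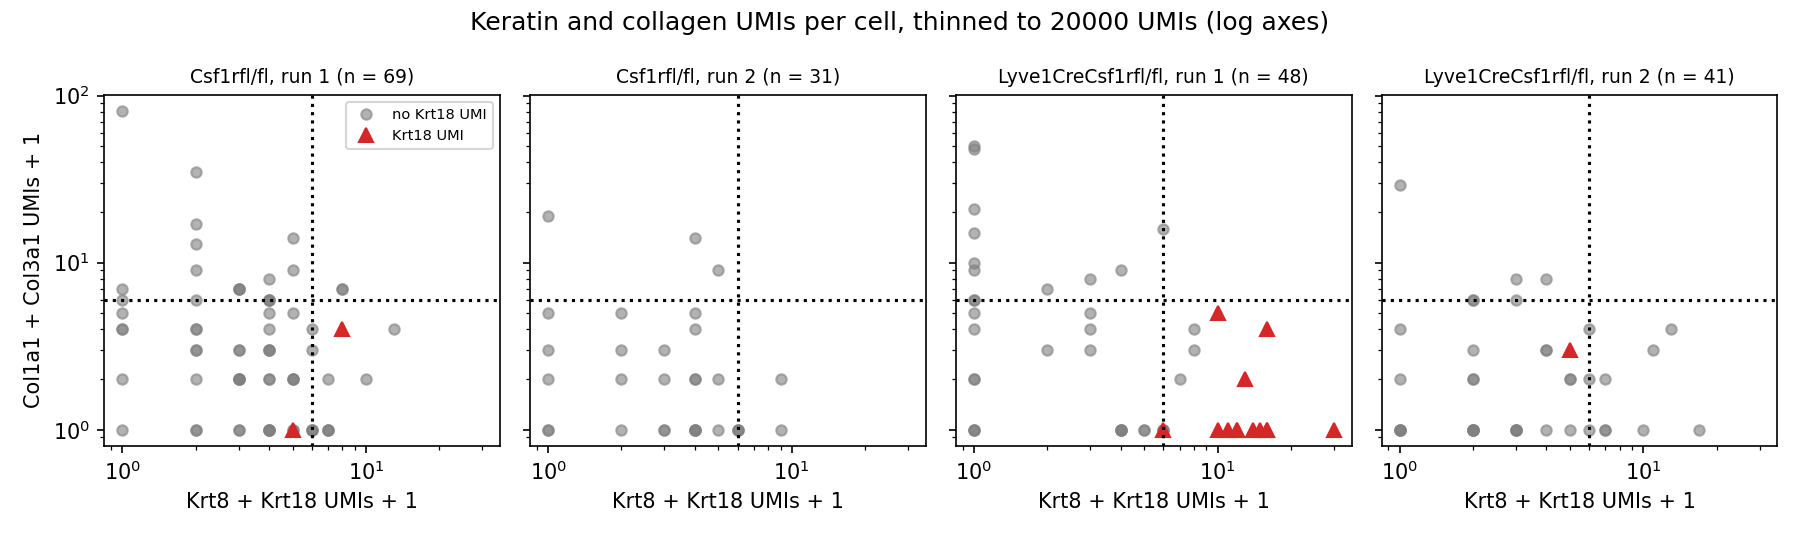
Keratin and collagen UMIs of each Sparc/Krt8 cell after thinning to 20000 UMIs, 1 panel per tumor, on log axes after adding 1. Dotted lines mark 5 UMIs and triangles mark cells with a *Krt18* UMI in the thinned data; few cells lie past both lines (3 of 189), and triangles gather in the Lyve1CreCsf1rfl/fl tumor of run 1.

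Some genes followed the split in every tumor. *Wfdc2* was higher in the keratin cells in all 4 tumors, with log2 differences of 1.81, 0.66, 3.25 and 0.25. *Dpt* was lower in all 4, at −3.70, −1.29, −4.51 and −1.51 after adding 0.05 per 10000, on 107 UMIs, and in the second tumor both classes were near 0 (0 and 0.0719 per 10000). *Ccl7*, a monocyte-attracting chemokine, was lower in all 4 as well. *Spp1* was 35.7 per 10000 in the collagen cells of the third tumor against 0.566 in its keratin cells, and lower in the keratin cells of 3 tumors, but in the fourth it was 1.39 in keratin and 0.517 in collagen cells. *Vim* was lower in the keratin cells in all 4 tumors (−0.59, −1.04, −0.93 and −0.03). *Zeb1* and *Twist1* had mixed signs, and *Sparc* was within 0.41 of equal in each tumor. Among the 12 genes most raised in the keratin cells of the third tumor, 4 were raised in the other 3 as well, where 19.9% of all genes raised there were. Of the 12 most lowered, 3 were lowered in the other 3, against 19.6%. Median depths were 55977.5 UMIs for keratin, 46047 for collagen and 54584 for the remaining cells.

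MHC class I genes present peptides to CD8+ T cells. Genes of this presentation and of checkpoint ligands were lower in the Sparc/Krt8 cells than in the other kept cells in all 4 tumors for 13 of 13 listed genes. Their sum was 41.4 to 46.4 per 10000 against 91.4 to 97.3. *H2-K1* stood at 3.74, 3.92, 3.38 and 3.44 against 17.8 to 20.3, *B2m* at 14.5 to 16.4 against 30.3 to 34.7, while *H2-D1* at 11.4 to 15.7 came close to the 15.9 to 19.9 elsewhere. *Cd274*, the PD-L1 gene, had 75 UMIs. Of 16 interferon response genes 14 were lower in all 4 tumors, and 1, *Bst2*, was higher at 11.2 to 12.3 against 5.38 to 8.26.

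Hashtag antibodies for mouse cells bind CD45 and MHC class I, so their counts are a readout on protein. The rule used the counts only to name the tumor, but it capped *Ptprc*, the gene of CD45. The comparisons with other cells are thus not independent of the choice, and their p-values are no support. The authors' singlet filter also used the hashtag counts. The median count of the higher hashtag was 98, 161, 156.5 and 159 in the Sparc/Krt8 cells in tumor order. It was 452, 356, 398.5 and 456.5 in the other kept cells of at least 20000 UMIs, and the Sparc/Krt8 cells were lower in 4 of 4 tumors. Ratios were 0.217, 0.452, 0.393 and 0.348, or −1.56 ± 0.46 on the log2 scale (SD, n = 4, exact paired permutation p = 0.125, the smallest that 4 tumors allow). Against all other kept cells, which are far shallower, the difference was −0.26 ± 0.24 (SD, n = 4) and was lower in 3 of 4 tumors (exact paired permutation p = 0.25). Of the first comparison group, 76.0% were cells that Scrublet marked as doublets, whose part in the difference was not tested. Between genotypes the hashtag counts of the Sparc/Krt8 cells differed by 0.33 on the log2 scale (exact permutation p = 1.0), 0.675 in run 1 and −0.018 in run 2.

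**Figure D3:**
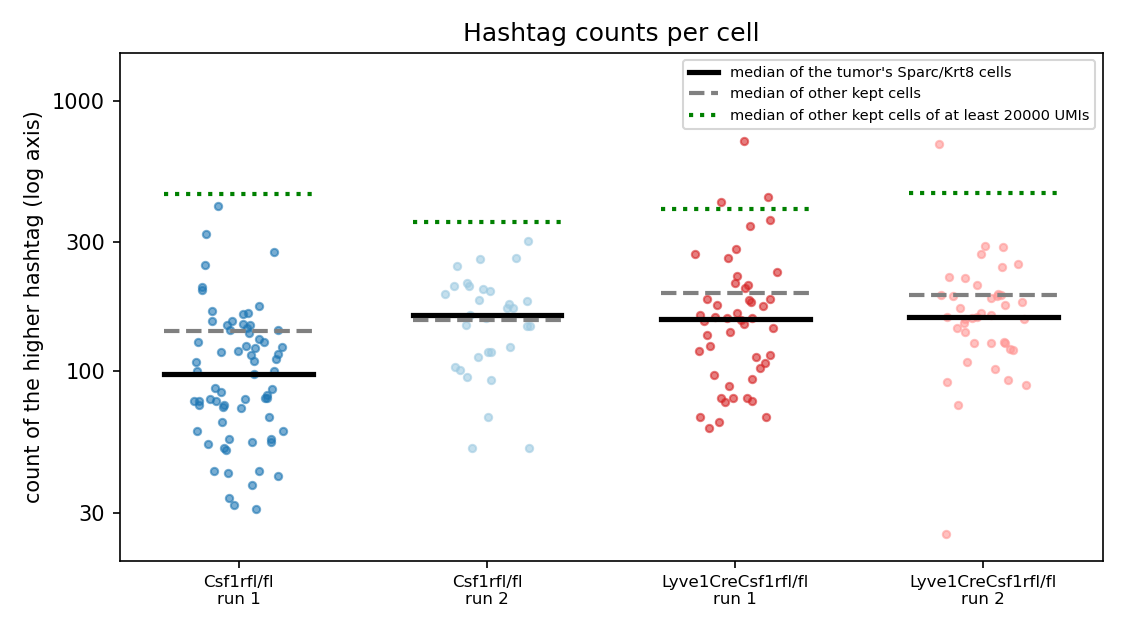
Count of the higher hashtag in each Sparc/Krt8 cell by tumor, on a log axis, with lines for the medians of these cells (solid), of other kept cells (dashed) and of other kept cells of at least 20000 UMIs (dotted). The solid lines at 98 to 161 lie below the dotted lines at 356 to 456.5 in every tumor.

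Cell cycle genes were higher than in the other kept cells in all 4 tumors for 15 of 19, against 5586 of the 15623 genes with a UMI. Their sums were 24.2 to 25.9 against 12.4 to 16 per 10000. *Top2a*, a topoisomerase of dividing cells, stood at 2.98, 3.03, 2.97 and 4.45 in 159 cells. *Ccnd1*, cyclin D1, was at 2.92, 3.52, 2.70 and 3.6, against 0.806 to 1.71. Against other kept cells of at least 20000 UMIs several of the 19 were lower here, with ratios of 0.806 for *Pcna*, 0.90 for *Mcm6*, 0.919 for *Rrm2*, 0.925 for *Tyms* and 0.944 for *Mcm2*, and *Top2a* was at 1.12. *Mki67* was lower than in all other kept cells, at 0.427 to 0.535 against 1.06 to 1.83, and *Cdkn2a*, which encodes the cell cycle inhibitors p16 and p19, had no UMI. Of 17 hypoxia and glycolysis genes, 9 were higher in all 4 tumors and 5 lower.

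Between genotypes, in sums over the Sparc/Krt8 cells of each tumor, edgeR tested 9584 genes and called none at an adjusted p of 0.05 (0.0% of genes tested), so none of the listed genes was called either. At an unadjusted p under 0.05 there were 112 genes (1.17%), 62 higher and 50 lower in Lyve1CreCsf1rfl/fl, and DESeq2 called 1. With the run as a block, 31 genes were called, 17 higher and 14 lower, on 1 residual degree of freedom, and 27 of them had the same direction in both runs. Of those 31 genes, 18 were at a higher level in the other kept cells than in the Sparc/Krt8 cells. Levels of the genotypes did not overlap, with both tumors of one above both of the other, for 994 genes higher (10.4%) and 840 lower (8.76%). Fewer cells with a transcript and fewer transcripts per cell cannot be told apart in these sums.

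The 10 genes with the smallest unadjusted p, 5 per direction, were led upward by *Dqx1*, a gene of the RNA-dependent ATPase family. It had 1, 1, 13 and 234 UMIs in tumor order, in 10 cells in all. The fourth tumor carried nearly all of it. Its difference was 6.85 ± 1.4 on the log2 scale (SE, edgeR adjusted p = 1.0, unadjusted 0.000401), and DESeq2 called it (adjusted p = 0.000302). Without the Lyve1CreCsf1rfl/fl tumor of run 2 it was 3.57 (edgeR adjusted p = 0.538).

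*Cd74*, the MHC class II invariant chain, stood at 0.312, 0.347, 0.95 and 0.599 per 10000, higher in both Cre tumors. The other kept cells held 23.5 to 33.4. The difference was 1.26 ± 0.30 (SE, edgeR adjusted p = 1.0, and 1.06e-08 with the run as a block), and without the cells that Scrublet marked it was −0.041. The share of cells so marked was higher in both Cre tumors (41.7% and 51.2% against 33.3% and 32.3%). *Ptprc*, capped by the rule and given without a test, stood at 0.0828, 0.0578, 0.148 and 0.158 per 10000, also higher in both Cre tumors, and was absent from 54 of 69, 23 of 31, 26 of 48 and 24 of 41 cells. With *Ptprc* under 0.5 per 10000 the *Cd74* difference was 0.49, and without the Lyve1CreCsf1rfl/fl tumor of run 1 it was 0.74. In the first tumor 1 cell held 80 of its 117 UMIs, and in the third 1 cell held 123 of 269. *Aif1* and *Ikbke* were also among the 5, at 2.81 ± 0.70 and 1.61 ± 0.41 (SE, edgeR adjusted p = 1.0 and, with the block, 0.000349 and 0.0446), both lower here than in the other kept cells. *Aif1* had 4, 3, 38 and 11 UMIs and stood at 1.67 without the Lyve1CreCsf1rfl/fl tumor of run 1. *Plet1* was at 0.195, 0.243, 0.519 and 0.381, a difference of 1.08 ± 0.29 (SE, edgeR adjusted p = 1.0, and 0.00031 with the block), and 0.69 without the same tumor. The other kept cells held 0.0956, 0.383, 0.235 and 0.212 of *Plet1*, more than these cells in the second tumor. In the third tumor 120 of the 147 *Plet1* UMIs lay in the 16 cells with *Krt18*.

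Downward the smallest p belonged to *Gdf15*, a stress-induced cytokine of the TGF-β family. It stood at 0.366, 0.347, 0.152 and 0.145 per 10000, lower in both Cre tumors, with a difference of −1.26 ± 0.27 (SE, edgeR adjusted p = 1.0, and 0.000349 with the block). The other kept cells held 0.328, 0.136, 0.159 and 0.0864 of *Gdf15*, also lower in the Cre tumor within each run. *Nnmt*, a methyltransferase of nicotinamide, stood at 0.262, 0.248, 0.127 and 0.115 (−1.07 ± 0.29). *Cdc42ep1*, an effector of the Cdc42 GTPase, stood at 0.23, 0.427, 0.124 and 0.163 (−1.16 ± 0.32, and −0.77 without the Csf1rfl/fl tumor of run 2), and the heparin-binding growth factor gene *Mdk* at 0.435, 0.185, 0.141 and 0.124 (−1.29 ± 0.40, and −0.41 without the Csf1rfl/fl tumor of run 1). All 3 were at under 0.02 per 10000 in the other kept cells of every tumor. With the block their adjusted p values by edgeR were 0.0401, 0.00426 and 0.00223. *Gzma*, a granzyme of killer cells, stood at 0.139, 0.0404, 0.0247 and 0.0128 against 5.22 to 9.35 elsewhere.

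Hypoxia and glycolysis genes lay above 0 for 16 of 16 tested, with a median log2 difference of 0.18, against 4926 of 9584 and 0.01 over all genes. Within run 2 alone some went the other way, *Adm* at −0.56, *Eno1* at −0.14 and *Hk2* at −0.047. None was called, 3 had an unadjusted p under 0.05 (1.17% of all genes), and 7 were higher without overlap (10.4% of all genes). *Egln3*, an oxygen sensor, stood at 0.387, 0.404, 0.565 and 0.612 (0.57 ± 0.22 SE). *Ndrg1* stood at 0.823, 0.884, 1.35 and 1.22 (0.60 ± 0.23) and the oxidoreductase *Ero1l* at 0.636, 0.641, 1.21 and 0.855 (0.71 ± 0.27). *Ndrg1*, *Ero1l* and *Adm* were called with the block (edgeR adjusted p = 0.0235, 0.00454 and 0.0304). Without the Lyve1CreCsf1rfl/fl tumor of run 1 the difference was 0.39 for *Ndrg1* and 0.29 for *Ero1l*, and without the cells that Scrublet marked the differences were 0.023 for *Egln3*, −0.18 for *Ndrg1* and −0.16 for *Ero1l*.

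Stress and immediate early genes had a median of −0.50 over 13 tested genes, 4 of them above 0. None was called, 5 had an unadjusted p under 0.05 and were lower in Lyve1CreCsf1rfl/fl (1.17% of all genes in either direction), and 6 were lower without overlap (8.76% of all genes). *Junb* stood at 1.54, 1.36, 0.967 and 1.09 per 10000 (−0.50 ± 0.22 SE) and *Ier2* at 0.764, 0.699, 0.519 and 0.445 (−0.60 ± 0.24, and −0.40 without the Lyve1CreCsf1rfl/fl tumor of run 2), both transcription factor genes of the early response. *Dusp1*, a phosphatase gene of the same response, stood at 1.03, 0.682, 0.671 and 0.432 and was called with the block alone (−0.63, edgeR adjusted p = 0.0454). All 3 were at higher levels in the other kept cells.

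Of the antigen presentation and checkpoint ligand genes 1 of 12 lay above 0 (median −0.14) and 3 were lower without overlap, and of the interferon genes 4 of 16 lay above 0 (median −0.18) and 4 were lower and 2 higher without overlap, against 8.76% lower and 10.4% higher of all genes. None was called. In other lists medians were −0.02 for 16 matrix genes, −0.05 for 10 mesenchymal genes, 0.04 for 18 cell cycle genes, 0.09 for 13 protease genes and 0.04 for 14 ligand genes. Of the 5 dendritic cell and MHC class II genes tested the median was 1.01, led by *Cd74* and *H2-Eb1* (0.176, 0.156, 0.604 and 0.128, high in the third tumor alone). The median gene was *H2-Ab1*, which fell to 0.23 without the cells that Scrublet marked, to 0.30 with *Ptprc* under 0.5 per 10000 and to −0.020 without the Lyve1CreCsf1rfl/fl tumor of run 1. With the block *H2-Ab1* and *H2-Eb1* were called (edgeR adjusted p = 0.00461 and 0.00109), although *H2-Eb1* was −0.33 in run 2. *Spp1* stood at 1.12, 1.94, 6.99 and 0.954 per 10000, a difference of 1.49 ± 0.66 (SE, edgeR adjusted p = 1.0), which was 2.69 in run 1 and −1.08 in run 2. In the third tumor 2 cells held 452 and 364 of its 1979 UMIs, and with the block it was called (edgeR adjusted p = 1.34e-05). *Mmp3*, a stromelysin, had 138 UMIs in 15 cells, 61 of them in 1 cell, and its difference of 1.65 was 0.32 without the Lyve1CreCsf1rfl/fl tumor of run 1. With the block *Mmp3* was called (edgeR adjusted p = 0.000354).

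**Figure D4:**
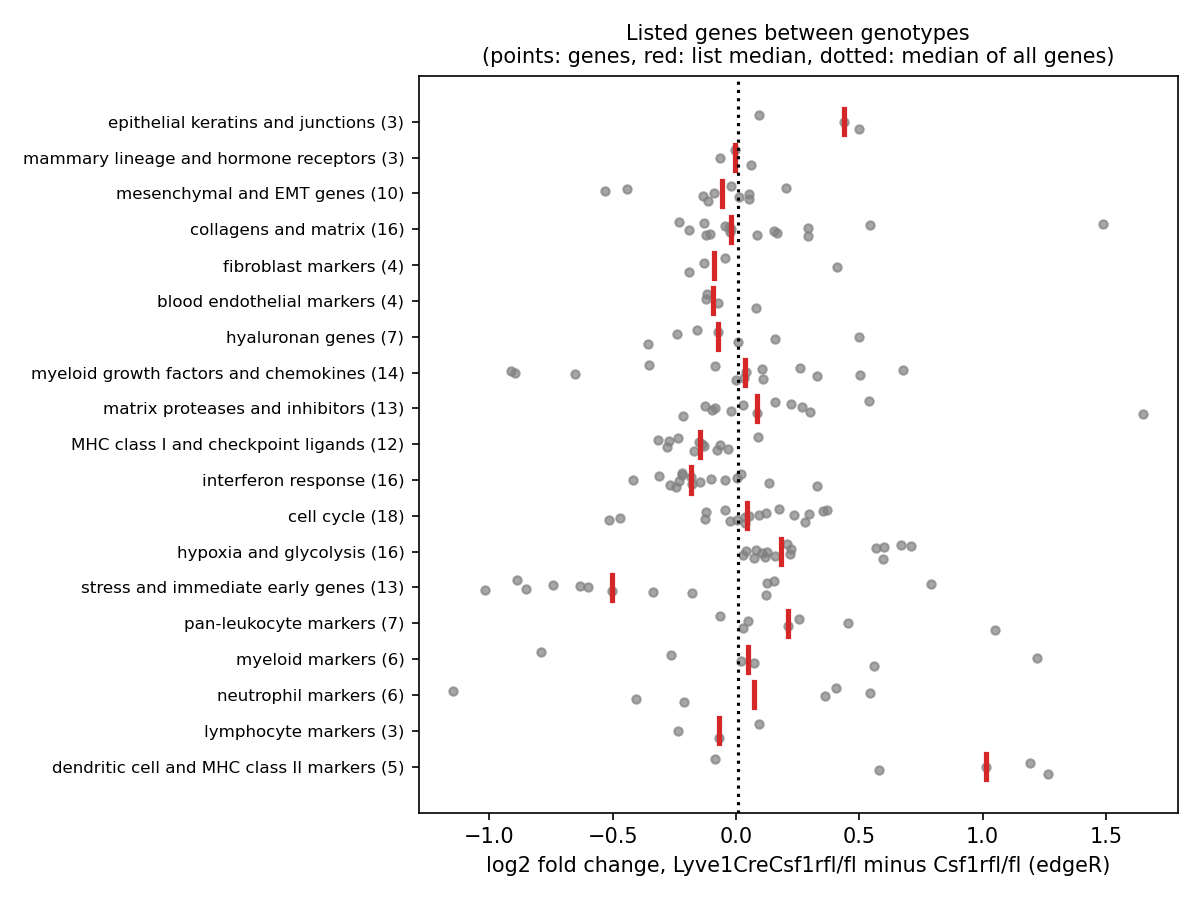
Log2 fold change between genotypes (Lyve1CreCsf1rfl/fl minus Csf1rfl/fl, edgeR) of each tested gene of the lists, with the number of genes in brackets, red bars at list medians and a dotted line at the median of all 9584 genes (0.01). The hypoxia genes all lie right of 0 and the stress genes center on −0.50, and no gene shown was called.

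Runs differed more than genotypes in these cells. With genotype as a covariate, a comparison chosen after seeing the data and with 1 residual degree of freedom, edgeR called 1029 genes between runs (10.7%), 327 higher in run 2 (3.41%) and 702 lower (7.32%). *S100a8*, a neutrophil alarmin gene, stood at 3.18, 1.02, 2.87 and 0.684 per 10000 in 172 cells, and the other kept cells held 93.4, 57.3, 118 and 39.0. Run 1 was higher in both sets of cells. A few cells held much of it: in the first tumor 2 cells had 394 and 217 of 1189 UMIs, the thinned medians were 1, 1, 1.5 and 1 in tumor order, and 24 of 189 cells had at least 5 thinned UMIs. *Cxcl2*, a neutrophil chemokine, stood at 2.65, 0.306, 1.35 and 0.231, far below the 58.3, 56.2, 118 and 31.6 of the other kept cells. *Cxcl1*, another, stood at 0.783, 0.312, 0.558 and 0.133, against 0.0217 to 0.177 in the other kept cells. The fourth value lay inside that range. For *Cxcl2*, 2 cells of the first tumor held 208 and 188 of 993 UMIs, and 11 of 189 cells had at least 5 thinned UMIs. Run 2 was lower for *S100a8*, *Cxcl2* and *Cxcl1* (−2.02, −3.01 and −1.81 on the log2 scale, edgeR adjusted p = 3.48e-37, 1.45e-63 and 9.69e-17).

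Of 6 neutrophil genes tested 5 were called lower in run 2 and of 14 ligand genes 7 were, against 7.32% of all genes. *Ccl2*, the main monocyte chemokine, stood at 5.15, 2.04, 5.15 and 2.11 in 172 cells, higher in both tumors of run 1. There 1 cell of the third tumor held 432 of its 1459 UMIs, without the highest cell of each tumor the levels were 4.82, 1.69, 3.76 and 1.70, and the thinned medians were 5, 1, 2 and 2. The other kept cells held 5.33, 2.56, 1.33 and 1.26, a pattern that followed genotype more than run. *Col3a1* stood at 1.71, 0.826, 2.02 and 1.08 and was lower in both tumors of run 2, given without a test since the gene entered the rule. Higher in run 2 were the glucose genes *Hk2* (0.689, 1.50, 0.78 and 1.52) and *Slc2a1* (0.409, 0.797, 0.674 and 1.13), by 0.86 and 0.67 (edgeR adjusted p = 6.95e-07 and 0.00144).

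Summed over each list, myeloid and neutrophil markers in the Sparc/Krt8 cells were also lower in run 2. The sums of lymphocyte and dendritic cell markers were not lower in run 2 in both genotypes. Of the 5 dendritic cell and MHC class II genes tested, however, 4 were called lower in run 2 and 1 higher (7.32% and 3.41% of all genes). Among the 4 was *H2-Ab1*, at 0.211, 0.139, 0.512 and 0.197 per 10000 in tumor order. Myeloid markers summed to 1.32, 0.439, 1.36 and 0.774 per 10000 and neutrophil markers to 7.0, 2.60, 6.38 and 1.38, against 51.6 to 89.0 and 108 to 294 in the other kept cells. All 10 myeloid and all 7 neutrophil markers were below the other kept cells in every tumor, as were 8113 genes in all. None of these markers was at 0 in the 189 cells as a whole. Their part in the run differences was not tested. Lymphocyte markers summed to 0.473, 0.162, 0.230 and 0.299, and dendritic cell and MHC class II markers to 2.06, 2.36, 3.39 and 2.79, higher in both Cre tumors. The 7 pan-leukocyte markers summed to 4.82 to 5.32, of which *Arhgdib* alone gave 3.91 to 4.25.

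**Figure D5:**
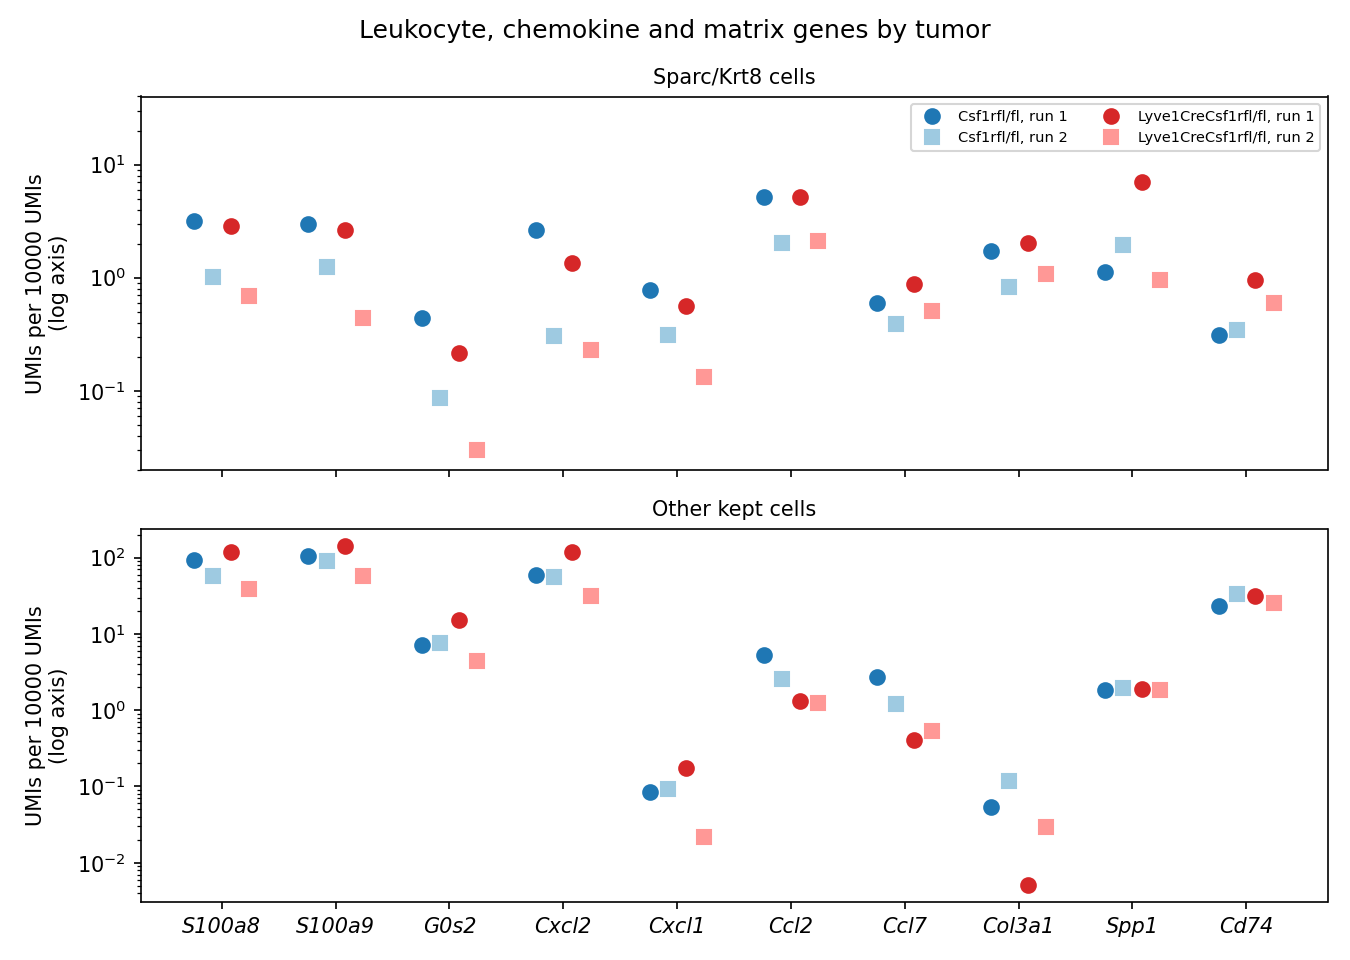
Levels of 10 genes by tumor in the Sparc/Krt8 cells (upper panel) and in the other kept cells (lower panel), as UMIs per 10000 UMIs on log axes, with circles for run 1 and squares for run 2. In the upper panel the squares of *S100a8*, *S100a9*, *G0s2*, *Cxcl2*, *Cxcl1* and *Ccl2* lie below both circles, while *Spp1* stands out in the Lyve1CreCsf1rfl/fl tumor of run 1 at 6.99.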

How the data were processed

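Viable CD45+ cells of 4 tumors were sequenced in 2 Chromium 3′ runs with hashtag libraries. Per the labels and methods, the authors used Cell Ranger 6.0.1 with mm10 and Seurat and kept singlets under 5% mitochondrial reads. They removed 4 clusters specific to the Lyve1CreCsf1rfl/fl tumor of run 2, with the cells of every tumor in them. The deposited raw RNA and hashtag tables hold whole-number counts of UMIs for 53361 barcodes (32285 genes). The deposited normalized table, which holds corrected counts made by the authors with SCTransform (given here as a score), served only to name the 28429 kept cells. Of these, 11 had tied hashtags and belong to no tumor. Depth per tumor was 27686362 to 56349195 UMIs, and intervals cover counting error only. The methods give 2 tumors per genotype and the labels do not say that they came from separate animals, so p-values speak for these tumors only. The fits with the run as a term leave 1 residual degree of freedom and draw on a spread shared across genes. Their p-values need not reflect how a gene varied between tumors. *Spp1*, for one, was called with the block at 2.69 in run 1 and −1.08 in run 2.

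Counts were summed per tumor over the 189 cells and tested by edgeR 4.0.16 (filterByExpr, TMM, quasi-likelihood, Benjamini-Hochberg adjusted p of 0.05, R 4.3.3), with DESeq2 1.42.0 as an alternative. Levels are UMIs per 10000 UMIs. A 3′ kit counts a molecule once whatever its length. Doublets were called by Scrublet in scanpy 1.11.5 (expected rate 0.2) within each run. Thinning used 20000 UMIs per cell. Scripts were tested on simulated data. RefSeq windows were matched by symbol, and some items are not reported here. Members and gene lists were chosen with earlier results of these data known. Named genes were the 5 per direction with the smallest p, plus the lists' genes. Each run pools both genotypes in 1 library, so run numbers pair the tumors, and the deviations of same-run tumors correlated at 0.400. The strand setting of the counting is not given in the sources used here.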

Additional observations from a re-analysis of the deposited data

Results flagged for a closer look

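The share of Sparc/Krt8 cells among kept cells stood out because the genotypes differed in opposite directions in the runs. Lyve1CreCsf1rfl/fl was lower than Csf1rfl/fl in run 1 (−0.275 on the log2 scale) and higher in run 2 (1.11), and the difference between runs was not tested. The kept cells lack clusters that the authors removed as specific to the Lyve1CreCsf1rfl/fl tumor of run 2. Over all barcodes the log2 shares were −7.38, −8.30, −7.73 and −8.10 in tumor order, closer together in run 2. *Spp1* was higher in Lyve1CreCsf1rfl/fl in run 1 (2.69) and lower in run 2 (−1.08), again without a test of the difference between runs.

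Barcodes outside the kept cells also met the 3 conditions. There were 43 of them, 4, 10, 18 and 11 in tumor order, with a median of 58784 UMIs. In 31 of them the higher hashtag was under 3 times the lower, and none had a mitochondrial share of 5% or more (highest 2.38%).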

How the results depend on the processing

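The count of genes called between genotypes was 0 and moved to 31 with the replicate block (13 of them listed genes), to 1 by DESeq2, to 2 with a UMI minimum of 10000 (2 listed genes, *Col1a1*, which the rule used, and *Col1a2*; that setting adds cells picked in part for collagen UMIs), and to 1 to 27 (listed genes 0 to 7) when each tumor was left out in turn (13 and 27 without the Csf1rfl/fl tumor of run 1 or 2, 1 and 26 without the Lyve1CreCsf1rfl/fl tumor of run 1 or 2), where the lone tumor is assumed to vary like the others. Over 26 genes and the alternatives that gave a value, 336 of 347 values kept their direction and 18 genes never reversed. The 26 include the rule genes *Krt8*, *Sparc* and *Col3a1* and the genes picked for the smallest p between genotypes. The tally is therefore a description and no support for those genes. The 11 reversals were *Cd74* (−0.041), *Ndrg1* (−0.18), *Ero1l* (−0.16) and *Spp1* (−0.28) without Scrublet doublets, *Lyve1* (−0.19) with a marker minimum of 50, *Col3a1* (−0.73) and *Mmp3* (−0.92) with a UMI minimum of 10000, *Col3a1* (−0.17) without the Csf1rfl/fl tumor of run 2, and *Col3a1* (−0.40), *H2-Ab1* (−0.020) and *Spp1* (−0.78) without the Lyve1CreCsf1rfl/fl tumor of run 1. With a tumor left out in turn, *Col3a1* ran from −0.40 to 0.997, *H2-Ab1* from −0.020 to 1.59 and *Spp1* from −0.78 to 2.32. The cause of these reversals was not tested.

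The share difference of 0.42 was −0.0737 over all barcodes, 0.0062 without Scrublet doublets, 0.787 with a marker minimum of 50 and −0.0867 to 0.922 with a tumor left out, negative without the Csf1rfl/fl tumor of run 2. The hashtag difference of 0.33 was −0.0295 to 0.687 with a tumor left out. *Aif1*, *Dqx1*, *Egr1*, *Gzma* and *Mmp3* gave no value without Scrublet doublets, since they fell below the filter. Keratin cells numbered 78 at a threshold of 2 UMIs, 14 at 10 and 30 without doublets. Collagen cells numbered 13 at 10 and 21 without doublets, and cells with both 47 at 2 and 0 at 10. The median ratio of the 25 leading genes was 12.8 against other kept cells of at least 20000 UMIs. With 2 tumors per genotype, small differences are out of reach.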

Other observations

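Kept cells that met the marker and *Ptprc* conditions but fell short of the UMI minimum were mixed. Some, such as the deepest, had *Rhox5* and *Wfdc2* UMIs and no type I collagen, as the 189 cells mostly do, and others held type I collagen without *Krt8*. Over all 9 cells, of 8900 to 19828 UMIs, *Col1a1* stood at 22.9 and *Col1a2* at 25.8 UMIs per 10000, against 0.0395 and 0 in the 189 cells. The fibroblast gene *Dcn* stood at 20.3 per 10000 on 268 UMIs in 3 cells, and had no UMI in the 189 cells. *Fn1*, the fibronectin gene, stood at 8.95 against 0.0075. These UMIs were not spread evenly: *Col1a2* was found in 4 of the 9 cells, and 1 other cell, from the Lyve1CreCsf1rfl/fl tumor of run 2, had 20 *Pecam1* and 18 *Cdh5* UMIs. *Krt8* had 5 UMIs in 3 of the cells and *Lyve1* had none.

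Further genes separated the runs within the 189 cells, named here after their values were seen. *Tmem267* stood at 0.318, 1.88, 0.141 and 2.30 per 10000 in tumor order, and was 3.01 higher on the log2 scale in run 2 (edgeR adjusted p = 1.44e-67). *Slc7a5*, an amino acid transporter gene, stood at 0.382, 1.22, 0.272 and 0.971 in 159 cells (1.58, edgeR adjusted p = 1.08e-17).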
